A study of Homo sapiens with 14 samples.

Results

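The AS605240 response of 3 T-cell acute lymphoblastic leukemia (T-ALL) cell lines that received a high concentration of the PI3K inhibitor was set against that of 4 lines that received a low concentration, out of 7 lines in all. The high concentration lines were Molt-4 at 20.8 µM, TALL-1 at 21.33 µM and P12-ICHIKAWA at 21.68 µM. The low concentration lines were CCRF-CEM at 11.89 µM, Jurkat at 17.54 µM, ALL-SIL at 17.54 µM and HPB-ALL at 17.62 µM. A line was placed by the concentration it received, over 20 µM or under 18 µM, and no expression value entered that choice. Each line was cultured once with AS605240 and once with vehicle for 6 h, so that 6 arrays belonged to the high and 8 to the low concentration lines, 14 in all. The change of a gene in a line is the log2 signal with AS605240 minus that with vehicle, after 16 was added to the signal, and the difference between the classes is the mean change in the 3 high minus the mean change in the 4 low concentration lines.

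Every line received its own half-maximal inhibitory concentration, so the concentration, the drug sensitivity and the identity of a line cannot be told apart, and each line has 1 array per treatment. All 7 are established leukemia cell lines grown in suspension. P12-ICHIKAWA and TALL-1 stood close to each other, with a correlation of 0.994 between their vehicle levels over genes, against 0.908 to 0.953 for all other pairs of lines. Results are therefore also given with this pair averaged into 1 line. All 12 T-cell markers exceeded a signal of 50 on 7 or more of the 14 arrays, CD3D averaging 12.02 in high and 12.25 in low concentration lines with vehicle (log2). Of 5 B-cell markers 1 did so, as did 1 of 6 myeloid markers. Not every T-cell marker was high in every line. With vehicle CD28 was at 4.62 in CCRF-CEM, 4.35 in Molt-4 and 4.43 in ALL-SIL, and CD2 at 4.62 in CCRF-CEM and 4.50 in Molt-4.

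PI3K produces the membrane lipid that recruits and activates the kinase AKT. Active AKT keeps FOXO transcription factors out of the nucleus and, through mTORC1, drives ribosome production, protein synthesis and the making of sterols and fatty acids by way of SREBP. Loss of PI3K signaling therefore commonly releases FOXO targets, among them genes that code for components of the pathway itself, and lowers the genes of growth. Secretory and cytosolic chaperones fold the proteins that a growing cell makes, and their genes follow the folding load through ATF6, XBP1 and HSF1.

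The mean response of the called genes was larger in the high concentration lines. Over the 311 genes called in the 7 lines together (100 lower, 0.506% of all genes, and 211 higher, 1.07%, each past an adjusted p of 0.05 and a fold of 1.5), the mean change in the called direction was 0.848 in Molt-4, 0.91 in P12-ICHIKAWA and 0.868 in TALL-1, against 0.515 in CCRF-CEM, 0.633 in HPB-ALL, 0.737 in Jurkat and 0.686 in ALL-SIL (log2). The classes did not overlap, and CCRF-CEM, which received the least inhibitor, had the smallest response. The mean was 0.875 ± 0.0313 in high (SD, n = 3) and 0.643 ± 0.0949 in low concentration lines (SD, n = 4), a ratio of 1.36 (two-sided exact permutation p = 0.0286, the smallest that 35 splits of the lines can give). The 311 genes were called from these same arrays by a mean that the high concentration lines enter, which favours a larger change there. That p cannot be read apart from this choice. A measure that uses no called genes gave the same order of the classes. The SD of the change over the 9186 genes past that signal was 0.352, 0.351 and 0.323 in Molt-4, P12-ICHIKAWA and TALL-1, against 0.261, 0.271, 0.301 and 0.296 in CCRF-CEM, HPB-ALL, Jurkat and ALL-SIL (exact permutation p = 0.0286). With P12-ICHIKAWA and TALL-1 counted as 1 line the means were 0.874 and 0.673, where the exact permutation p was 0.133 and could not fall below 0.0667. Over the 216 genes called in the low concentration lines the means were 0.808 in high and 0.724 in low concentration lines, and those classes overlapped (exact permutation p = 0.314).

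**Figure D1:**
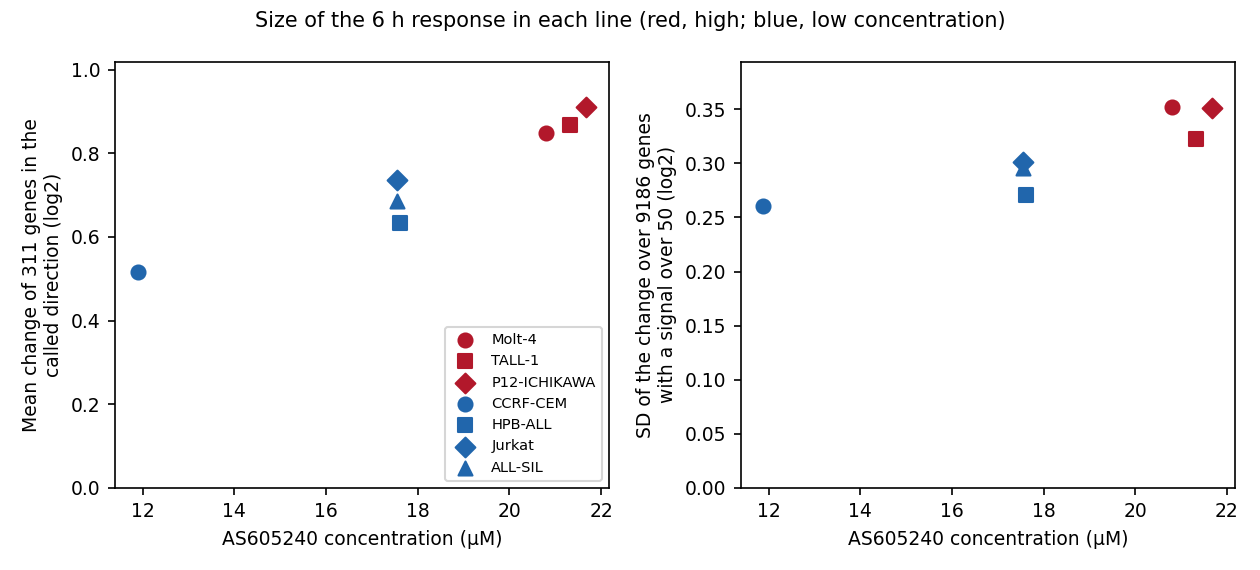
Size of the response of each line against the AS605240 concentration it received (µM). Left, mean change of the 311 called genes in the direction of the call (log2); right, SD of the change over 9186 genes (log2). The 3 high concentration lines (red) lie above the 4 low concentration lines (blue) in both panels, and the line at 11.89 µM is lowest.

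Some values that describe the RNA separated the same classes. The 3′ to 5′ ratio of the GAPDH control probe sets changed by -0.0967, -0.0565 and -0.0167 with AS605240 in Molt-4, P12-ICHIKAWA and TALL-1, against 0.0522, 0.0569, -0.00271 and 0.00263 in CCRF-CEM, HPB-ALL, Jurkat and ALL-SIL (log2). That of ACTB changed by -0.148, -0.0321 and -0.0392 in high, against 0.114, 0.203, 0.0447 and 0.114 in low concentration lines, also without overlap. The poly-A spike-in signal relative to the hybridization controls changed by 0.513, 0.699 and 0.0204 in Molt-4, P12-ICHIKAWA and TALL-1, against -0.15, 0.121, -0.0179 and -0.0128 in CCRF-CEM, HPB-ALL, Jurkat and ALL-SIL, where TALL-1 lay below HPB-ALL (exact permutation p = 0.0571). The median change over the 9186 genes was 0.0189 in high and 0.0344 in low concentration lines and did not separate them (exact permutation p = 0.714). The part of these values in the size of the response was not tested.

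Gene by gene, no difference between the classes passed an adjusted p of 0.05. Of 19775 genes tested, 0 (0%) passed in limma, the smallest adjusted p being 0.218, and 1546 (7.82%) had an unadjusted p under 0.05, of which 909 (4.6%) changed more positively and 637 (3.22%) more negatively in high concentration lines. The individual genes below are therefore given with the interval of their difference, and none of those differences passed the test across all genes. The responses within each class did pass for many genes. In the high concentration lines 238 genes (1.2%) fell and 417 (2.11%) rose, and in the low concentration lines 71 (0.359%) fell and 145 (0.733%) rose, with the same thresholds. The smaller class thus had the more calls. Among the 9186 genes with a signal over 50, 221 fell and 321 rose in high, and 68 fell and 130 rose in low concentration lines. Lists made mostly of such genes therefore start from a larger share of calls than that of all genes. Lower in both classes were 56 genes and higher in both 119, while 182 and 298 passed in the high, and 15 and 26 in the low concentration lines alone. No gene was called in opposite directions. A call in 1 class and not in the other does not show a difference, and only the difference itself was set against the test above.

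Among the 311 genes, 269 (86.5%) had the larger mean change in the high concentration lines, against 61.5% of all 9186 genes with a signal over 50 whose change was taken in the direction of their own mean. This held for 87 of 100 lower and 182 of 211 higher genes. The median ratio of the mean changes, high over low, was 1.36. Without overlap between the 3 and 4 lines, 71 genes (22.8%) had the larger and 1 the smaller change in high concentration lines, where 8.35% of all genes did not overlap in either direction. The order CCRF-CEM, then the mean of the 3 lines near 17.5 µM, then the mean of the 3 high concentration lines was followed by 175 of the 311 genes (56.3%), against 25% of the 9186 genes taken in the direction of their own mean. A strict order, in which every line of a step lay beyond every line of the step before, was seen for 29 genes (11 lower and 18 higher), 9.32% of the 311 against 1.76% of the 9186. For 111 genes the 95% interval of the difference lay within 0.5 of 0, 35.7% of the 311 against 75.1% of the 9186. With P12-ICHIKAWA and TALL-1 counted as 1 line, 224 of 275 called genes (81.5%) had the larger change in high concentration lines. Vehicle levels of the 311 genes were alike in median, 7.42 in high and 7.43 in low concentration lines. The 311 genes were chosen from these same arrays by a mean that the high concentration lines enter, which favours a larger change there. Of genes called in the low concentration lines, 47 of 71 lower (66.2%) and 97 of 145 higher (66.9%) had the larger change in high. Their median ratios were 1.1 and 1.11.

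**Figure D2:**
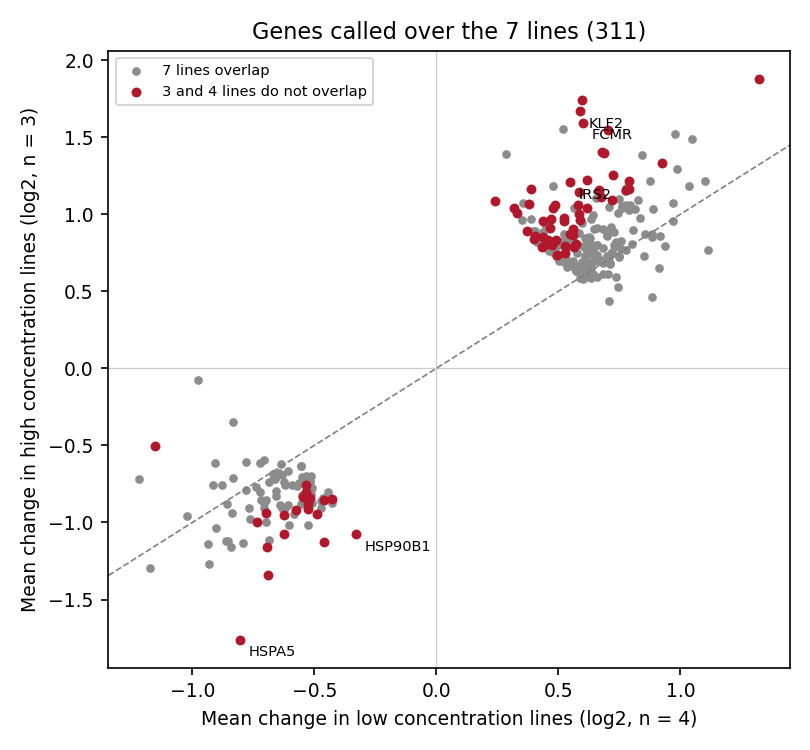
Mean change of the 311 called genes in the high concentration lines (vertical, log2, n = 3) against that in the low concentration lines (horizontal, log2, n = 4). The dashed line marks equal change, red points are genes whose 3 and 4 lines did not overlap, and 269 genes lie beyond the dashed line, away from 0.

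Chaperones of the endoplasmic reticulum (ER) included the genes with the smallest p among those lower in high concentration lines. HSPA5 codes for BiP, the HSP70 chaperone of the ER lumen. Its log2 level was 9.41, 9.05 and 9.08 in AS605240-treated Molt-4, P12-ICHIKAWA and TALL-1 cells, against 10.97, 10.83 and 11.04 in the same lines with vehicle. It was 9.50, 10.55, 9.86 and 9.97 in AS605240-treated CCRF-CEM, HPB-ALL, Jurkat and ALL-SIL cells, against 9.92, 11.22, 11.23 and 10.72 with vehicle. HSPA5 thus changed by -1.56 in Molt-4, -1.77 in P12-ICHIKAWA and -1.95 in TALL-1, against -0.42 in CCRF-CEM, -0.67 in HPB-ALL, -1.37 in Jurkat and -0.75 in ALL-SIL. All 7 lines were below their vehicle and the ranges of the classes did not touch, Jurkat lying nearest to the high concentration lines. HSPA5 fell 3.39-fold in high (adjusted p = 7.39e-05) and 1.74-fold in low concentration lines (adjusted p = 0.00358), a difference of -0.96 (95% interval -1.38 to -0.54) with an adjusted p of 0.562. On the concentration itself the slope was -0.154 ± 0.0292 log2 units per µM (SE), with an adjusted p of 0.289 in limma. Every line but CCRF-CEM, at 11.89 µM, received between 17.54 and 21.68 µM, so such slopes lean on that 1 line. A dimmer HSPA5 probe set gave -0.66 in high and -0.31 in low concentration lines.

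HSP90B1, the ER member of the HSP90 family known as GRP94, changed by -1.08 in Molt-4, -0.89 in P12-ICHIKAWA and -1.25 in TALL-1, against -0.19 in CCRF-CEM, -0.40 in HPB-ALL, -0.37 in Jurkat and -0.35 in ALL-SIL. The low concentration lines lay close together and well above all 3 high concentration lines. The means were -1.07 ± 0.18 in high and -0.33 ± 0.09 in low concentration lines (SD), the difference -0.75 (95% interval -1.01 to -0.48), and its adjusted p of 0.24 was the smallest of any named gene. Its probe set can share signal with related sequences, and a dimmer set gave -0.27 in high and -0.17 in low concentration lines. MANF, an ER stress-induced secreted protein, changed by -1.03 in Molt-4, -1.46 in P12-ICHIKAWA and -1.53 in TALL-1, against -0.28 in CCRF-CEM, -0.85 in HPB-ALL, -0.92 in Jurkat and -0.72 in ALL-SIL, without overlap. Its difference was -0.65 (95% interval -1.02 to -0.27), and its slope of -0.119 ± 0.0209 log2 units per µM (SE) had an adjusted p of 0.289. DNAJB11, an HSP40 partner of BiP, differed by -0.38 (95% interval -0.64 to -0.13), also without overlap.

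Of the 26 ER chaperone genes tested, 8 fell in the high and 3 in the low concentration lines, against 1.2% and 0.359% of all genes. None rose. Those that fell in both were HSPA5, MANF and SDF2L1. The median change of the list was -0.306 in high and -0.205 in low concentration lines, against 0.0198 and 0.0124 over all genes. Of the list, 17 genes changed more negatively in high concentration lines and 9 more positively, against 9714 and 10061 of all 19775 genes. A signal over 50 was seen for 24 of the 26, and 4976 of the 9186 genes with such a signal changed more negatively. In 5 genes (HSPA5, HSP90B1, DNAJB11, DNAJC3 and MANF) the high concentration lines lay wholly below the low ones, against 4.04% of all genes and 6.07% of the 9186. The rest of the list overlapped. Line by line the list's medians ran together, with -0.309, -0.4 and -0.321 in Molt-4, P12-ICHIKAWA and TALL-1, against -0.172, -0.238, -0.322 and -0.31 in CCRF-CEM, HPB-ALL, Jurkat and ALL-SIL.

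The promoters show which of these genes hold the ER stress response element, the site read by ATF6 together with NF-Y. RefSeq windows of GRCh38.p14 were searched over 250 bases before the start of each gene for CCAAT followed after 9 bases by CCACG, on both strands. The element was found in 26 of 35116 windows (0.074%) and in 9 of the 25 ER chaperone genes with a window. The element, in capitals, is shown for a pair of genes with a wide separation of the classes (HSPA5 and HSP90B1) and a pair with nearly equal change (CALR and CRELD2), read 5′ to 3′ along the gene.
HSPA5: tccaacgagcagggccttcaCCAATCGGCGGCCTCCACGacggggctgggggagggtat
HSP90B1: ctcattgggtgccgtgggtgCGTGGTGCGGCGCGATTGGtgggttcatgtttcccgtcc
CALR: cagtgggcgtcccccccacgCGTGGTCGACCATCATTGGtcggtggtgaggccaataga
CRELD2: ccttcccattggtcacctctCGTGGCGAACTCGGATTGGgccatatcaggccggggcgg
These stretches lie at chr9:125241371-125241429 on the minus strand, chr12:103930301-103930359 on the plus strand, chr19:12938364-12938422 on the plus strand and chr22:49918534-49918592 on the plus strand. In HSPA5 the element reads in the direction of the gene, and in the other three it lies on the opposite strand. CALR, the ER lectin calreticulin, changed by -0.31 in Molt-4, -0.33 in P12-ICHIKAWA and -0.23 in TALL-1, against -0.38 in CCRF-CEM, -0.21 in HPB-ALL, -0.36 in Jurkat and -0.49 in ALL-SIL. CRELD2, a secreted ER protein, changed by -0.35 in Molt-4, -0.87 in P12-ICHIKAWA and -0.70 in TALL-1, against -0.39 in CCRF-CEM, -0.79 in HPB-ALL, -0.61 in Jurkat and -0.38 in ALL-SIL. Both genes overlapped between the classes, with differences of 0.07 (95% interval -0.18 to 0.32) for CALR and -0.10 (95% interval -0.43 to 0.23) for CRELD2. Over the 9 genes with the element the median difference was -0.133 and ran between -0.958 and 0.169, and over the 16 without it -0.161, between -0.648 and 0.112.

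Some cytosolic chaperone genes fell in the high concentration lines. Of 18 genes of the heat shock list, 8 fell in high (HSPA4, HSPH1, HSPE1, DNAJA1, DNAJB1, STIP1, CHORDC1 and FKBP4) and 0 in low concentration lines, where 6 passed an adjusted p of 0.05 with a smaller fold. Over all genes 1.2% fell in high and 0.359% in low concentration lines. DNAJA1, an HSP40 that brings clients to HSP70, changed by -0.78 in Molt-4, -0.78 in P12-ICHIKAWA and -0.78 in TALL-1, against -0.14 in CCRF-CEM, -0.09 in HPB-ALL, -0.39 in Jurkat and -0.47 in ALL-SIL. Its 3 high concentration lines agreed to the second decimal and lay below all others, a difference of -0.50 (95% interval -0.78 to -0.23). A further DNAJA1 probe set gave -0.66 in high and -0.15 in low concentration lines. CHORDC1, an HSP90 co-chaperone, changed by -1.38 in Molt-4, -0.91 in P12-ICHIKAWA and -1.10 in TALL-1, against -0.26 in CCRF-CEM, -0.26 in HPB-ALL, -0.52 in Jurkat and -0.79 in ALL-SIL, and differed by -0.67 (95% interval -1.02 to -0.32). HSPH1, the HSP110 exchange factor, differed by -0.44 (95% interval -0.79 to -0.10), and here ALL-SIL, at -0.87, lay among the high concentration lines. The list's median was -0.227 in high and -0.173 in low concentration lines and, without Molt-4, -0.152 in high. The heat shock element bound by HSF1, taken as GAA, TTC and GAA set 2 bases apart on either strand, was in 155 of 35116 windows (0.441%) and in 5 of the 15 heat shock genes with a window. Of the genes that separated, CHORDC1 held it, shown in capitals at chr11:90223067-90223119 on the minus strand.
CHORDC1: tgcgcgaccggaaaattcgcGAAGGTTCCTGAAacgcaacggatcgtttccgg
DNAJA1 did not hold these letters in its window.

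**Figure D3:**
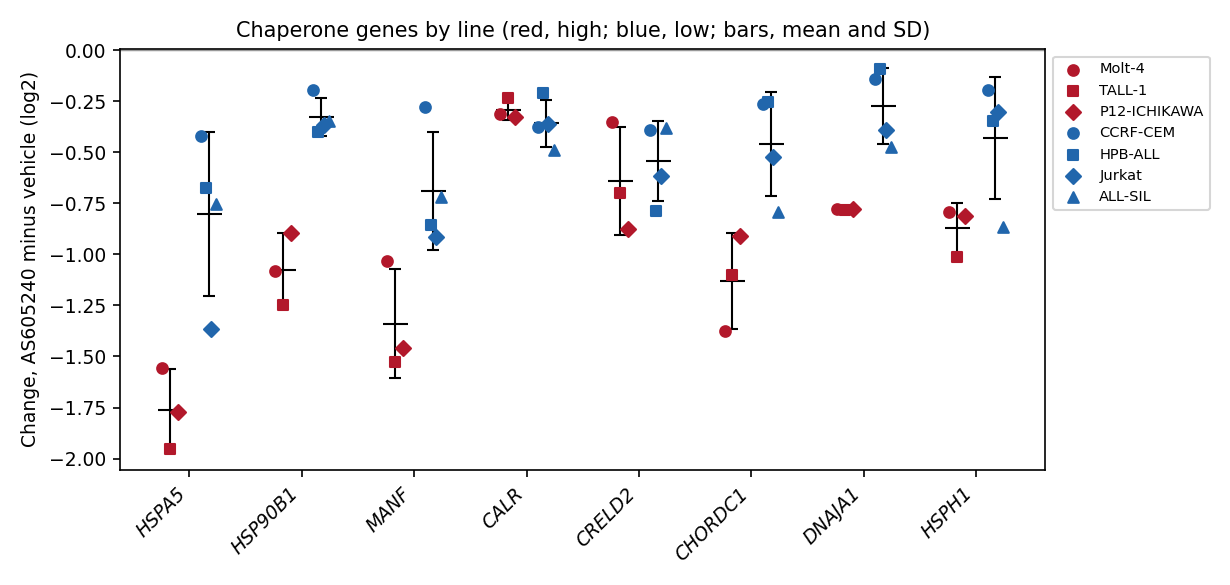
Change of 8 chaperone genes in each line (AS605240 minus vehicle, log2), with the 3 high concentration lines (red) left of the 4 low concentration lines (blue) and bars for the mean and SD. HSPA5, HSP90B1, MANF, CHORDC1 and DNAJA1 show no overlap of the classes, and CALR, CRELD2 and HSPH1 do.

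The genes that PI3K signaling is known to repress included several with the larger mean change in the high concentration lines. Of 29 FOXO targets, 10 rose in high and 2 in low concentration lines (CCNG2 and YPEL5, which also rose in high), and none fell. Over all genes 2.11% rose in high and 0.733% in low concentration lines. The list's median change was 0.438 in Molt-4, 0.489 in P12-ICHIKAWA and 0.524 in TALL-1, against 0.305 in CCRF-CEM, 0.288 in HPB-ALL, 0.297 in Jurkat and 0.376 in ALL-SIL. These medians did not overlap. The same was seen for the PI3K and AKT core, immediate early and ERK output genes, T-cell activation genes and T-cell and B-cell markers. It is thus not particular to FOXO targets, and it was seen where only 7 of 18 T-cell activation genes and 1 of 5 B-cell markers had a signal over 50. All lists were looked at, and the separation of list medians was not tested. The medians of all genes with a signal over 50 overlapped between the classes. The T-cell marker medians were 0.0729, -0.0169 and 0.146 in Molt-4, P12-ICHIKAWA and TALL-1, against -0.103 to -0.0353 in low concentration lines. KLF2, a factor of T-cell quiescence and trafficking, changed by 1.59 in Molt-4, 1.70 in P12-ICHIKAWA and 1.71 in TALL-1, against 1.01 in CCRF-CEM, -0.22 in HPB-ALL, 0.30 in Jurkat and 1.27 in ALL-SIL. The high concentration lines were close to each other, while the low ones ran between a small decrease in HPB-ALL and 1.27 in ALL-SIL. KLF2 rose 3.18-fold in high (adjusted p = 0.000484), and its mean of 0.59 in low concentration lines had an adjusted p of 0.0706. The difference was 1.08 (95% interval 0.48 to 1.68). Vehicle levels of KLF2 also differed, averaging 5.19 in high and 7.42 in low concentration lines.

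S1PR1, the receptor by which T cells leave lymphoid tissue and a target of KLF2, changed by 0.44 in Molt-4, 1.34 in P12-ICHIKAWA and 1.13 in TALL-1, against 0.30 in CCRF-CEM, 0.08 in HPB-ALL, 0.25 in Jurkat and 0.31 in ALL-SIL. Molt-4 lay between the pair P12-ICHIKAWA and TALL-1 and the low concentration lines. The difference of 0.73 (95% interval 0.33 to 1.13) passed an adjusted p of 0.05 only when Molt-4 was left out (0.0476). IRS2, the insulin receptor substrate that feeds PI3K, changed by 1.28 in Molt-4, 1.47 in P12-ICHIKAWA and 0.87 in TALL-1, against 0.45 in CCRF-CEM, 0.61 in HPB-ALL, 0.27 in Jurkat and 0.87 in ALL-SIL, and the low end of the high class met the high end of the low class. The difference was 0.66 (95% interval 0.29 to 1.03), and a dimmer IRS2 probe set gave 0.61 in high and 0.37 in low concentration lines, a difference of 0.23. INSR, the insulin receptor, rose by 0.67 in high, with 0.39 in low concentration lines.

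The catalytic subunits of PI3K had changes of different sign and size. PIK3CD, which codes for p110δ of lymphocytes, changed by 0.96 in Molt-4, 1.14 in P12-ICHIKAWA and 1.24 in TALL-1, against 0.91 in CCRF-CEM, 0.75 in HPB-ALL, 0.52 in Jurkat and 0.52 in ALL-SIL. It rose in both classes, 2.16-fold in high (adjusted p = 9.32e-05) and 1.6-fold in low concentration lines (adjusted p = 0.00156), without overlap and with a difference of 0.44 (95% interval 0.15 to 0.73). PIK3CG, which codes for p110γ, changed by 0.28 in Molt-4, 0.32 in P12-ICHIKAWA and 0.55 in TALL-1, against 0.14 in CCRF-CEM, 0.48 in HPB-ALL, 0.50 in Jurkat and 0.36 in ALL-SIL. Its means were 0.38 and 0.37, and the difference was 0.01 (95% interval -0.27 to 0.29). PIK3CB, which codes for p110β, changed by -0.36 in Molt-4, -0.27 in P12-ICHIKAWA and -0.04 in TALL-1, against -0.07 in CCRF-CEM, 0.14 in HPB-ALL, 0.16 in Jurkat and 0.11 in ALL-SIL, a difference of -0.31 (95% interval -0.57 to -0.04) with neither class past the test. Of 21 genes of the PI3K and AKT core, 4 rose in high (PIK3CD, PIK3IP1, IRS2 and INSR) and 1 in low concentration lines (PIK3CD), and none fell. The shares of all genes that rose were 2.11% in high and 0.733% in low concentration lines.

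Part of the growth genes fell in each class, where 1.2% of all genes fell in high and 0.359% in low concentration lines. Of 73 ribosome biogenesis genes 32 fell in high and 16 in low concentration lines. The change was more negative in high for 53 of them, against 4976 of the 9186 genes with a signal over 50, though no member's difference passed the test. The line medians overlapped, with -0.563, -0.481 and -0.414 in Molt-4, P12-ICHIKAWA and TALL-1, against -0.19, -0.351, -0.435 and -0.576 in CCRF-CEM, HPB-ALL, Jurkat and ALL-SIL. CCRF-CEM was the lowest responder of the 7 and ALL-SIL the highest. LTV1, needed for export of the small subunit, changed by -1.05 in Molt-4, -0.84 in P12-ICHIKAWA and -0.87 in TALL-1, against -0.31 in CCRF-CEM, -0.55 in HPB-ALL, -0.69 in Jurkat and -0.74 in ALL-SIL, a difference of -0.35 (95% interval -0.63 to -0.06). WDR43, a nucleolar small-subunit factor, differed by -0.32 (95% interval -0.58 to -0.06), and NOP58, a core box C/D snoRNA protein, by -0.38 (95% interval -0.68 to -0.09).

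Of 36 other Myc targets 8 fell in high and 3 in low concentration lines, against 1.2% and 0.359% of all genes. EIF2S1, the alpha subunit of translation factor eIF2, changed by -0.77 in Molt-4, -1.12 in P12-ICHIKAWA and -0.94 in TALL-1, against -0.31 in CCRF-CEM, -0.43 in HPB-ALL, -0.56 in Jurkat and -0.66 in ALL-SIL, without overlap, and differed by -0.45 (95% interval -0.74 to -0.17). Dimmer EIF2S1 probe sets gave smaller differences of -0.19 and -0.13. BCAT1, the cytosolic enzyme of branched-chain amino acid transfer, changed by -0.38 in Molt-4, -0.97 in P12-ICHIKAWA and -0.94 in TALL-1, against -0.46 in CCRF-CEM, -0.10 in HPB-ALL, 0.00 in Jurkat and -0.08 in ALL-SIL. P12-ICHIKAWA and TALL-1 stood apart, and Molt-4 lay inside the range of the low concentration lines. The difference of BCAT1 was -0.54 in a further probe set of like brightness, and -0.24 and 0.14 in dimmer ones. APEX1, a DNA repair endonuclease, had the larger value in the high class, with 0.25 ± 0.03 in high and 0.00 ± 0.08 in low concentration lines (SD), and passed in neither class. MYC itself stayed near 0 in both, with 0.09 in Molt-4, -0.08 in P12-ICHIKAWA and -0.11 in TALL-1, against 0.05 in CCRF-CEM, -0.23 in HPB-ALL, 0.02 in Jurkat and 0.00 in ALL-SIL. The difference for MYC was 0.00 (95% interval -0.26 to 0.26).

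Among 22 HIF1 targets 5 fell in high and 2 in low concentration lines, against 1.2% and 0.359% of all genes, and 1 rose in each. P4HA1, a collagen prolyl hydroxylase, changed by -0.53 in Molt-4, -0.996 in P12-ICHIKAWA and -0.69 in TALL-1, against -0.16 in CCRF-CEM, -0.43 in HPB-ALL, -0.56 in Jurkat and -0.15 in ALL-SIL and differed by -0.41 (95% interval -0.74 to -0.09). BNIP3, a mitophagy receptor, differed by -0.45 (95% interval -0.82 to -0.09), and EGLN1, the oxygen-sensing hydroxylase of HIF, by -0.34 (95% interval -0.65 to -0.02). Jurkat overlapped the high concentration lines in all 3 genes. With P12-ICHIKAWA and TALL-1 counted as 1 line the count in high was 1 lower gene, and without Jurkat the count in low was 0.

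Most sterol synthesis genes had the more positive change in the high concentration lines, none of these differences passing the test. DHCR7 codes for the last enzyme of cholesterol synthesis. Its level was 7.25, 7.61 and 7.18 in AS605240-treated Molt-4, P12-ICHIKAWA and TALL-1 cells, against 7.75, 8.11 and 7.69 in the same lines with vehicle. It was 6.98, 5.55, 7.73 and 6.62 in AS605240-treated CCRF-CEM, HPB-ALL, Jurkat and ALL-SIL cells, against 7.70, 6.90, 9.16 and 7.73 with vehicle. The change was -0.50 in Molt-4, -0.50 in P12-ICHIKAWA and -0.51 in TALL-1, against -0.72 in CCRF-CEM, -1.35 in HPB-ALL, -1.43 in Jurkat and -1.12 in ALL-SIL. All lines were below their vehicle, and the low concentration lines lay beyond the high ones without overlap. DHCR7 fell 2.23-fold in low (adjusted p = 0.000257), with a mean change of -0.51 in high concentration lines (adjusted p = 0.0163), and the difference was 0.65 (95% interval 0.30 to 0.99). A further DHCR7 probe set gave -0.60 in high and -1.08 in low concentration lines.

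Of 23 cholesterol synthesis genes, 3 fell in high (IDI1, SQLE and MSMO1) and 7 in low concentration lines, where HMGCS1, LSS, DHCR7 and STARD4 joined them, and 1 rose in high (SREBF1). Among all genes 1.2% fell in high and 0.359% in low concentration lines, and 2.11% rose in high. In 21 of the 23 the change was more positive in high concentration lines, against 10061 of all 19775 genes. In 4 of the 23 (DHCR7, LSS, TM7SF2 and INSIG1) the classes did not overlap, against 4.31% of all genes. The list's median was -0.107 in Molt-4, -0.328 in P12-ICHIKAWA and -0.143 in TALL-1, against -0.206 in CCRF-CEM, -0.277 in HPB-ALL, -0.747 in Jurkat and -0.388 in ALL-SIL. Jurkat fell furthest, HMGCS1, the entry enzyme of the pathway, changing by -2.43 there and by -0.42 to -1.03 in the other low concentration lines. Without Jurkat the counts were 4 lower genes in high and 5 in low, the medians -0.138 and -0.263, and 17 of 23 genes had the more positive change in high concentration lines. With P12-ICHIKAWA and TALL-1 counted as 1 line 0 genes passed in high in either direction, and without Molt-4 1 fell there, with 7 lower in low concentration lines in both.

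SREBF1, the gene of the SREBP-1 factor, changed by 0.18 in Molt-4, 0.83 in P12-ICHIKAWA and 0.77 in TALL-1, against -0.29 in CCRF-CEM, 0.25 in HPB-ALL, -0.31 in Jurkat and 0.19 in ALL-SIL. It rose in high concentration lines (0.59, adjusted p = 0.0175), carried by P12-ICHIKAWA and TALL-1, while Molt-4 lay among the low concentration lines. The difference was 0.63 (95% interval 0.22 to 1.05), and 0.21 in a dimmer SREBF1 probe set. TM7SF2, a sterol reductase, changed by 0.75 in Molt-4, 0.49 in P12-ICHIKAWA and 0.23 in TALL-1, against 0.15 in CCRF-CEM, 0.04 in HPB-ALL, -0.12 in Jurkat and 0.12 in ALL-SIL. FADS2, the delta-6 fatty acid desaturase, changed by -0.19 in Molt-4, 0.20 in P12-ICHIKAWA and 0.06 in TALL-1, against -0.35 in CCRF-CEM, -0.32 in HPB-ALL, -0.63 in Jurkat and -0.31 in ALL-SIL, and differed by 0.43 (95% interval 0.13 to 0.72). SCD, the stearoyl-CoA desaturase, fell in low concentration lines (-0.83, adjusted p = 0.00331), and in the high class Molt-4 reached -0.88 while P12-ICHIKAWA and TALL-1 were at 0.00 and -0.16 with this probe set. Its mean in high concentration lines was -0.349, against -0.689, -0.613 and -0.525 in dimmer SCD probe sets. Those sets gave -1.04, -1.08 and -0.935 in low concentration lines.

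**Figure D4:**
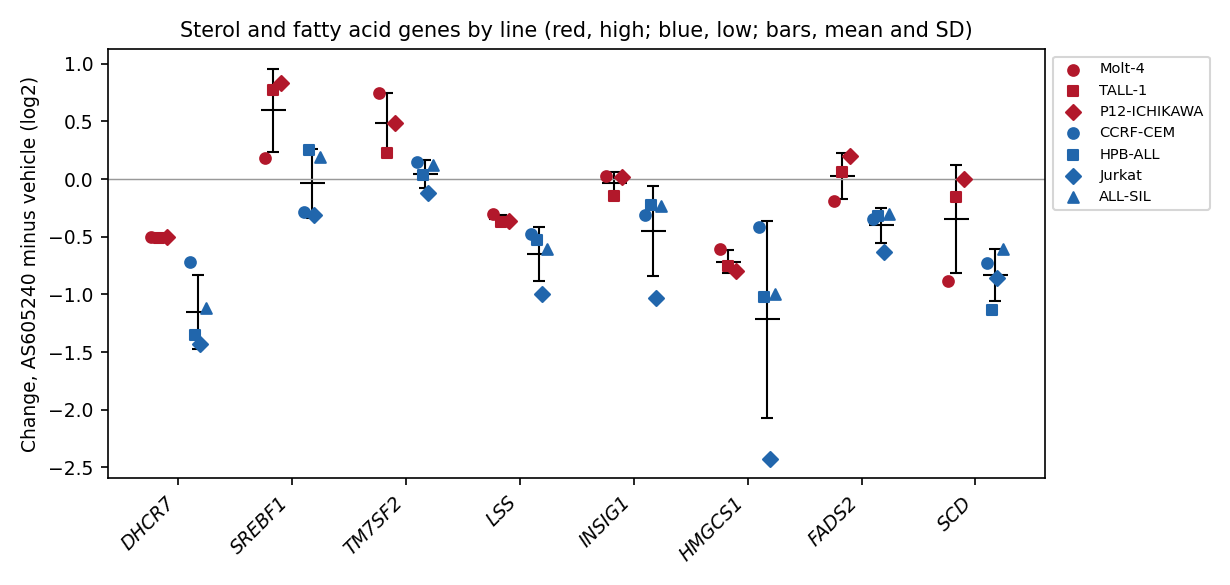
Change of 8 sterol and fatty acid genes in each line (AS605240 minus vehicle, log2), with the 3 high concentration lines (red) left of the 4 low concentration lines (blue) and bars for the mean and SD. The low concentration lines lie lower for DHCR7, LSS, INSIG1, FADS2 and TM7SF2, and Jurkat is lowest for HMGCS1 at -2.43.

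TXNRD1 and TP53INP1 passed an adjusted p of 0.05 in the low concentration lines. TXNRD1, the cytosolic thioredoxin reductase, changed by 0.02 in Molt-4, -0.12 in P12-ICHIKAWA and 0.09 in TALL-1, against 0.44 in CCRF-CEM, 0.44 in HPB-ALL, 0.51 in Jurkat and 0.45 in ALL-SIL. The 4 low concentration lines were close to each other, and none of the 3 high ones reached them. TXNRD1 differed by -0.46 (95% interval -0.70 to -0.22), and its mean in low concentration lines had an adjusted p of 0.00337. TP53INP1, a p53-induced stress gene, rose in low concentration lines (0.81, adjusted p = 0.00706) and changed by 0.59 in Molt-4, 0.21 in P12-ICHIKAWA and -0.54 in TALL-1, so that Molt-4 overlapped the low class. Another TP53INP1 probe set of like brightness gave 0.06 in high and -0.06 in low concentration lines. TIGAR, a p53-induced regulator of glycolysis, fell in both classes, with -1.02 in high and -0.60 in low concentration lines and a difference of -0.41 (95% interval -0.88 to 0.05). MDM2, the ubiquitin ligase of p53, passed in neither class and differed by -0.34 (95% interval -0.67 to -0.01), and another MDM2 probe set of like brightness gave a difference of -0.01.

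Most mitotic genes had the more negative change in the high concentration lines, and few passed the test in either class. Of 46 G2/M genes 43 had the more negative change in high, against 4976 of the 9186 genes with a signal over 50. The list's median was 0.193 in high and 0.344 in low concentration lines. Called higher were 1 gene in high and 2 in low concentration lines (2.11% and 0.733% of all genes), and 0 in low without Jurkat. The line medians were -0.0106 in Molt-4, 0.257 in P12-ICHIKAWA and 0.299 in TALL-1, against 0.147 in CCRF-CEM, 0.38 in HPB-ALL, 0.501 in Jurkat and 0.379 in ALL-SIL. Molt-4 and CCRF-CEM were the lowest of the 7, and without Molt-4 the high median was 0.293 and 35 genes had the more negative change. BUB1, a spindle checkpoint kinase, changed by -0.07 in Molt-4, 0.09 in P12-ICHIKAWA and 0.15 in TALL-1, against 0.28 in CCRF-CEM, 0.59 in HPB-ALL, 0.55 in Jurkat and 0.40 in ALL-SIL, without overlap, a difference of -0.40 against -0.21 in a dimmer BUB1 probe set. SPC25, a kinetochore subunit, changed by -0.48 in high and -0.05 in low concentration lines and differed by -0.43 (95% interval -0.73 to -0.13), and KIF23, a kinesin of cytokinesis, by -0.31 (95% interval -0.65 to 0.02).

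By the smallest unadjusted p among genes with a signal over 50, the 10 genes with the more positive change in high concentration lines were PRUNE2, BBS1, VILL, MICA, ANXA2R, FCMR, C10orf143, GALM, LOC100310756 and EVI2A. All 10 were without overlap, which a choice by the smallest p favours, where 4.2% of the 9186 genes lay that way. Their differences lay between 0.55 (GALM) and 1.14 (ANXA2R). ANXA2R, a receptor for annexin A2, changed by 1.84 in Molt-4, 2.36 in P12-ICHIKAWA and 1.03 in TALL-1, against 0.56 in CCRF-CEM, 0.48 in HPB-ALL, 0.63 in Jurkat and 0.72 in ALL-SIL. P12-ICHIKAWA and TALL-1 were the extremes of the high class for this gene. Its difference of 1.14 (95% interval 0.64 to 1.65) had an adjusted p of 0.562, and of 0.0317 with those lines counted as 1 and 0.0222 without TALL-1. FCMR, the Fc receptor for IgM, changed by 0.99 in Molt-4, 2.11 in P12-ICHIKAWA and 1.69 in TALL-1, against 0.43 in CCRF-CEM, 0.73 in HPB-ALL, 0.52 in Jurkat and 0.73 in ALL-SIL, and a further probe set gave 1.5 in high and 0.60 in low concentration lines.

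EVI2A, a gene nested within an intron of NF1, changed by 1.21 in Molt-4, 1.49 in P12-ICHIKAWA and 1.51 in TALL-1, against 0.38 in CCRF-CEM, 0.49 in HPB-ALL, 1.08 in Jurkat and 0.76 in ALL-SIL, and Jurkat came nearest to the high class. MICA, the stress ligand of the NKG2D receptor, changed by 0.84 in Molt-4, 1.29 in P12-ICHIKAWA and 1.36 in TALL-1, against 0.65 in CCRF-CEM, 0.38 in HPB-ALL, 0.20 in Jurkat and 0.32 in ALL-SIL. VILL, a villin-like actin-binding protein, rose in both classes, 2.63-fold in high and 1.61-fold in low concentration lines. PRUNE2 rose 2.05-fold in high (adjusted p = 0.000157) and changed by 0.48 in CCRF-CEM, 0.41 in HPB-ALL, 0.38 in Jurkat and 0.00 in ALL-SIL. GALM, galactose mutarotase, rose in high (0.61, adjusted p = 0.00117) with 0.06 in low concentration lines, and its vehicle level was 7.60 in high and 5.33 in low. That level was 4.17 in Jurkat and 4.24 in ALL-SIL, near the lowest possible value. BBS1, a BBSome subunit, differed by 0.57 (95% interval 0.33 to 0.81), but dimmer BBS1 probe sets gave differences of 0.21 and 0.02.

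In the other direction the 10 genes were HSP90B1, HSPA5, FAM241A, INTS13, OAT, TXNRD1, CHORDC1, THOC1, DIAPH3 and DNAJA1, of which 4 are chaperone or co-chaperone genes. FAM241A changed by -0.63 in Molt-4, -0.79 in P12-ICHIKAWA and -0.50 in TALL-1, against -0.32 in CCRF-CEM, 0.07 in HPB-ALL, 0.04 in Jurkat and 0.00 in ALL-SIL. INTS13, a subunit of the Integrator complex, changed by -0.48 in Molt-4, -0.49 in P12-ICHIKAWA and -0.62 in TALL-1, against -0.01 in CCRF-CEM, -0.19 in HPB-ALL, 0.05 in Jurkat and 0.06 in ALL-SIL. It was lower in every high concentration line (mean -0.53, adjusted p = 0.00218) and near 0 in the low ones. OAT, ornithine aminotransferase, differed by -0.55 (95% interval -0.84 to -0.27).

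THOC1 and DIAPH3 took opposite signs in the classes, though both were near 0 in CCRF-CEM. THOC1, a subunit of the THO complex of mRNA export, changed by -0.48 in Molt-4, -0.25 in P12-ICHIKAWA and -0.25 in TALL-1, against 0.02 in CCRF-CEM, 0.22 in HPB-ALL, 0.15 in Jurkat and 0.22 in ALL-SIL. DIAPH3, an actin-nucleating formin, changed by -0.26 in Molt-4, -0.34 in P12-ICHIKAWA and -0.27 in TALL-1, against 0.02 in CCRF-CEM, 0.11 in HPB-ALL, 0.33 in Jurkat and 0.42 in ALL-SIL, and a further probe set gave -0.22 in high and 0.24 in low concentration lines. For THOC1 the mean in high concentration lines had an adjusted p of 0.031 and that in low ones 0.287. For DIAPH3 these were 0.067 and 0.141 in limma, so that DIAPH3 passed in neither class.

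Of 33 immediate early and ERK output genes, 22 had the more positive change in the high concentration lines, against 10061 of all 19775 genes. EGR1, a zinc finger factor induced within minutes by growth signals, changed by 0.42 in Molt-4, 1.21 in P12-ICHIKAWA and 1.96 in TALL-1, against 0.04 in CCRF-CEM, -0.70 in HPB-ALL, 0.37 in Jurkat and -1.57 in ALL-SIL. The spread within each class was wide, the difference was 1.66 (95% interval 0.76 to 2.56), and dimmer EGR1 probe sets gave 0.72 in high and -0.06 in low, and -0.12 in high and 0.00 in low concentration lines. ETV5, an ERK-induced ETS factor, changed by 0.29 in Molt-4, 0.24 in P12-ICHIKAWA and 0.36 in TALL-1, against -0.14 in CCRF-CEM, 0.00 in HPB-ALL, -0.32 in Jurkat and -0.01 in ALL-SIL. In HPB-ALL and ALL-SIL its level was too near the lowest possible value for a sign to be read. DUSP6, the phosphatase that ERK induces against itself, rose in high concentration lines (0.72, adjusted p = 0.00296) and changed by 0.20 in CCRF-CEM, 0.50 in HPB-ALL, -0.18 in Jurkat and 0.11 in ALL-SIL. Among 20 NF-kB targets 14 had the more positive change in high, against the same 10061 of 19775 genes. LTB, coding for lymphotoxin beta, differed by 0.61 (95% interval 0.23 to 0.99), IRF1 by 0.40 (95% interval 0.12 to 0.69) and NFKBIE by 0.32 (95% interval 0.03 to 0.60). A dimmer LTB probe set gave a difference of 0.10.

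Of 17 histone genes 5 rose in high and 1 in low concentration lines, against 2.11% and 0.733% of all genes. H2AC6 changed by 1.43 in Molt-4, 1.58 in P12-ICHIKAWA and 1.62 in TALL-1, against 0.43 in CCRF-CEM, 0.91 in HPB-ALL, 0.46 in Jurkat and 1.01 in ALL-SIL, without overlap, and differed by 0.84 (95% interval 0.50 to 1.18). H1-2, a linker histone, differed by 0.51 (95% interval 0.21 to 0.82), and H2BC21 by 0.72 (95% interval 0.28 to 1.16). Histone genes are near-identical in sequence, so probe sets can share signal among members. Of the list 15 genes had the more positive change in high, against 10061 of all 19775 genes. The medians were 0.299 in high and 0.23 in low concentration lines, and without Jurkat 0.299 and 0.312.

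Other called genes had nearly equal mean changes at both concentrations. The 10 chosen for the narrowest interval around 0 were SCGB1D1, MARS2, TIMM8A, TRMT6 and EMG1 among the lower and CILK1, TPP1, CCNDBP1, ABCD4 and CBX7 among the higher genes. CILK1, a ciliary kinase, changed by 0.85 in Molt-4, 0.73 in P12-ICHIKAWA and 0.83 in TALL-1, against 0.80 in CCRF-CEM, 0.72 in HPB-ALL, 0.87 in Jurkat and 0.82 in ALL-SIL. The 7 lines lay close together, and the difference was 0.00 (95% interval -0.23 to 0.24). TPP1, a lysosomal peptidase, changed by 0.65 in Molt-4, 0.68 in P12-ICHIKAWA and 0.50 in TALL-1, against 0.54 in CCRF-CEM, 0.71 in HPB-ALL, 0.62 in Jurkat and 0.57 in ALL-SIL, with a difference of 0.00 (95% interval -0.24 to 0.24), against 0.23 and 0.15 in dimmer TPP1 probe sets. ABCD4, a lysosomal transporter of cobalamin, and CBX7, a Polycomb subunit, differed by -0.04 (95% interval -0.28 to 0.19) and -0.02 (95% interval -0.29 to 0.24), and CCNDBP1, a cyclin D binding protein, by 0.00 (95% interval -0.28 to 0.28).

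MARS2, the mitochondrial methionyl-tRNA synthetase, changed by -0.76 in Molt-4, -1 in P12-ICHIKAWA and -0.60 in TALL-1, against -0.55 in CCRF-CEM, -0.71 in HPB-ALL, -0.93 in Jurkat and -0.94 in ALL-SIL, and the classes lay across each other. EMG1, a ribosomal RNA methyltransferase, changed by -0.62 in Molt-4, -1.03 in P12-ICHIKAWA and -0.98 in TALL-1, against -0.94 in CCRF-CEM, -0.71 in HPB-ALL, -1.07 in Jurkat and -0.70 in ALL-SIL. TIMM8A, a chaperone of the mitochondrial intermembrane space, and TRMT6, a subunit of a tRNA methyltransferase, differed by -0.06 (95% interval -0.32 to 0.21) and -0.06 (95% interval -0.32 to 0.21). Their equality depended on the probe set. A further TRMT6 probe set of like brightness gave -0.79 in high and -0.41 in low concentration lines, a difference of -0.39 (unadjusted p = 0.00717), and a dimmer TIMM8A set gave a difference of -0.48. SCGB1D1 differed by -0.05 (95% interval -0.28 to 0.18) at a signal over 50 in 3 of 14 arrays. The widest of these 10 intervals reached -0.33 (EMG1). Near-equal means were also seen for PRDX4, an ER peroxiredoxin (-0.67 ± 0.15 in high and -0.61 ± 0.20 in low concentration lines, SD), LDHA, lactate dehydrogenase A (-0.23 ± 0.07 in high and -0.25 ± 0.11 in low concentration lines, SD), and ALOX5AP, the 5-lipoxygenase activating protein (-0.19 ± 0.11 in high and -0.21 ± 0.25 in low concentration lines, SD). PRDX4 fell in both classes, and LDHA and ALOX5AP passed in neither. NR3C1, the glucocorticoid receptor, changed by 0.17 in Molt-4, 0.22 in P12-ICHIKAWA and 0.34 in TALL-1, against -0.33 in CCRF-CEM, 0.10 in HPB-ALL, 0.22 in Jurkat and 0.53 in ALL-SIL, a difference of 0.12 (95% interval -0.26 to 0.49).

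**Figure D5:**
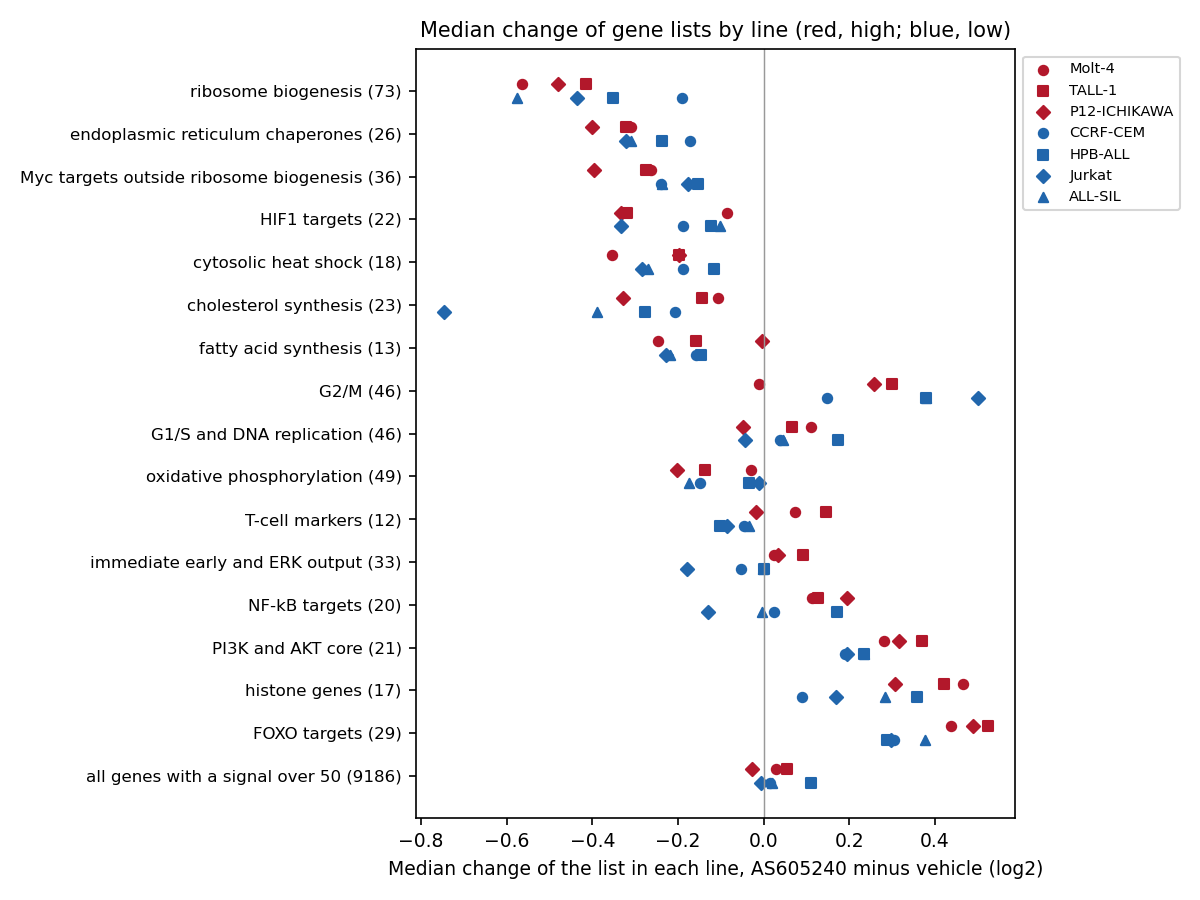
Median change of each gene list in each line (AS605240 minus vehicle, log2, number of genes tested in brackets), with the 3 high concentration lines (red) above the 4 low concentration lines (blue). FOXO targets, the PI3K and AKT core, immediate early and ERK output genes and T-cell markers lie further right in high concentration lines. Cholesterol synthesis lies further left in Jurkat, and all genes with a signal over 50 stay between -0.0277 and 0.111.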

How the data were processed

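RNA of 7 T-ALL lines cultured for 6 h with AS605240 or vehicle was hybridized to HG-U133 Plus 2.0 arrays, 1 per line and treatment. The deposited values are linear intensity per probe set, summarized by the authors with iterPLIER in Affymetrix Expression Console 1.3.1.187. Control probe sets (62 of 54675) were left out of the tests. Of the others, 41091 carry 1 gene symbol in the platform annotation, 1801 several and 11721 none here; for 41037 of the 41091 the current symbol was taken from RefSeq. Each of 19775 genes was represented by its brightest single-gene probe set. Changes were tested with limma 3.58.1 in R 4.3.3 on log2(intensity + 16), with a term for each cell line, terms for AS605240 in the high and low concentration lines, and their difference, and Benjamini-Hochberg adjustment over all genes. The offset of 16 understates the change of dim genes. The cell line pairs the AS605240 and vehicle arrays, which come from the same line, and the smallest correlation of vehicle levels between lines was 0.908. Exact permutation tests over lines were two-sided. Depth has no meaning for arrays, and precision is limited by their number. Applied concentrations were read from the study's supplementary text. Separate cultures per line are not stated as replicates, so p-values measure the spread between lines.

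Members, lists and tests were chosen with earlier results of these data known. Genes named are the 10 with the smallest p of the difference in each direction, 5 lower and 5 higher called genes with near-equal change, the 3 smallest p of each list described and genes of the pathway; DNAJB11, DNAJC3, CALR, CRELD2, SDF2L1, LSS, INSIG1, HMGCS1, INSR and the other called members of lists were named after their values were seen. The fits were tested on simulated data. Promoter windows are RefSeq's for GRCh38.p14. Alternatives covered offset, normalization, centring, probe set choice, a signal filter, the cell line term, concentration as a number and leaving out each line.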

Additional observations from a re-analysis of the deposited data

Results flagged for a closer look

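The response size differed between high and low concentration lines by 0.233 over the 311 genes called in 7 lines, by 0.255 over the 211 higher genes and by 0.0601 for the SD of the change over 9186 genes (log2, exact permutation p = 0.0286 each). The 311 and 211 genes were called from these same arrays, which favours a larger change in high concentration lines. The 3′ to 5′ ratios of GAPDH and ACTB control probe sets separated the classes in the same test, with differences of -0.0839 and -0.192.

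THOC1 (difference -0.48) and DIAPH3 (-0.51) had one sign in every high concentration line and the other sign in every low concentration line, though in CCRF-CEM each changed by only 0.02. ETV5 (0.42) had a positive change in every high concentration line and a negative change in CCRF-CEM and Jurkat. In HPB-ALL and ALL-SIL its level was too near the lowest possible value for a sign to be read. The opposition of signs was not tested, and none of these differences passed an adjusted p of 0.05 in limma.

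Within the 4 low concentration lines, FADS2 in Jurkat, at -0.63, stood apart from the other three (-0.35 to -0.31), as did H2BC21 in HPB-ALL, at 0.77, from the others (-0.02 to 0.12). Such a gap arises by chance in about 1 of 20 groups, and 77 groups were looked at.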

How the results depend on the processing

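With 3 against 4 lines, 2 of them near-identical, the difference between the classes can be resolved for few genes. No difference passed an adjusted p of 0.05 under any other offset, normalization, centring, probe set rule, filter or variance trend, with the slope on concentration, or without the cell line term; 1 passed with P12-ICHIKAWA and TALL-1 counted as 1 line (ANXA2R), and leaving out a line gave 0 to 6. The 6, without Molt-4, were IL10, FCMR, S1PR1, GFRA4, INTS6-AS1 and GDF10, and ANXA2R passed without TALL-1. At an unadjusted p under 0.05 the counts were 140 without the cell line term and 898 to 3093 otherwise. Calls within classes moved more. In the order high lower, high higher, low lower and low higher, the reported counts were 238, 417, 71 and 145. An offset of 64 gave 126, 156, 36 and 39, and all probe sets with a symbol gave 411, 819, 117 and 261. The mean of all probe sets of a gene gave 142, 265 and 72 where it moved (high lower, high higher, low higher), and centring on the median gave 371 genes lower in high. Without the replicate block for cell line, 0 genes passed in each class in each direction. The response size difference of 0.233 became 0.181 with an offset of 64 and 0.218 over genes with a signal over 50 (exact permutation p = 0.0571 each), 0.201 with P12-ICHIKAWA and TALL-1 as 1 line (0.133) and 0.0843 over genes called in low concentration lines (0.314). Without each line it was 0.187 to 0.269, where the exact permutation p cannot reach 0.05. The share of called genes with the larger change in high concentration lines was 78.4% to 89.2% over all settings. In limma the slope on concentration had an unadjusted p of 0.185 for PIK3CD, 0.224 for DHCR7, 0.103 for KLF2, 0.124 for BCAT1 and 0.181 for BUB1. For HSPA5 and MANF that slope had an unadjusted p of 0.000176 and 8.63e-05. These slopes lean on CCRF-CEM, whose concentration lay far below the others. Of 72 named genes 57 kept the sign of their difference in every setting. The other 15, all among those with near-equal change or the pathway genes, had intervals that included 0. The cause of these shifts was not tested.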

Other observations

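The ATF4 amino acid response list (35 genes) did not follow the concentration classes. Its median change was -0.72 in CCRF-CEM, which received the lowest concentration, against -0.299 to 0.139 in the other 6 lines, and -0.19 in high and -0.131 in low concentration lines as class medians. Oxidative phosphorylation genes (49) had medians of -0.117 in high and -0.086 in low concentration lines, G1/S and DNA replication genes (46) 0.0503 and 0.0622, and autophagy genes (38) 0.163 and 0.147. Interferon response genes had 6 of 31 higher in high and 3 in low concentration lines, against 2.11% and 0.733% of all genes. Without Molt-4, IL10 differed by 1.8, its change being 0.04 in Molt-4, 1.86 in P12-ICHIKAWA and 1.56 in TALL-1 and -0.07 in CCRF-CEM, -0.16 in HPB-ALL, -0.22 in Jurkat and 0.09 in ALL-SIL.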
